A study of Mus musculus with 2 samples.

Results

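The genes described are the cytosolic and mitochondrial molecular chaperones of mouse CT26 tumours. They were chosen by symbol alone: Hspa, Hspb, Hspd, Hspe and Hsph genes with a number, Hsp90a genes, Dnaja, Dnajb and Dnajc genes, Cct genes and Tcp1, without Hspa5. This gave 80 of the 26601 genes with a symbol: 13 of the HSP70 class (Hspa and Hsph), 2 of HSP90, 8 small HSPs (Hspb), 45 J proteins (Dnaj), 10 of TRiC (Cct and Tcp1) and 2 of HSP60 (Hspd1 and its partner Hspe1). The symbols also brought in 10 members, such as Dnajb9, Dnajb11 and Dnajc3, whose proteins are known to work in or on the endoplasmic reticulum.

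The tumours were CT26, a colon carcinoma line of BALB/c origin, grown subcutaneously in BALB/c mice, with the genotype labelled WT. Mice with tumours of about 200 mm3 were injected into a vein with nanoparticles carrying FuOXP at 10 mg/kg (FuOXP NP), a conjugate of 5-fluorouracil and oxaliplatin, or with the same kind of particle without drug (Empty NP). Both groups received 3 injections at intervals of 5 days, and tumours were taken 24 h after the last. The labels give 3 mice, but the table holds 1 library per group, and whether tumours were pooled is not stated. There is therefore no replicate check, no test and no p-value, and higher and lower describe these libraries only. In whole tumours, fewer cells of a type and less RNA per cell cannot be told apart.

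Chaperones bind unfolded proteins and help them to fold. HSP70 proteins grip short unfolded stretches, J proteins deliver the clients and trigger the ATP cycle of HSP70, and HSP90 finishes kinases and receptors. TRiC is a ring chamber that folds actin and tubulin, HSP60 with its lid HSP10 is the chamber of the mitochondrial matrix, and small HSPs hold unfolded proteins without ATP. Under proteotoxic stress the factor HSF1 binds heat shock elements, arrays of the units GAA and TTC turned head to head, and switches on inducible members such as Hspa1a and Hspa1b. Many tumours carry high levels of constitutive HSP90 and HSP70.

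Heat shock elements were looked for in RefSeq promoter windows of build GRCm38.p6, from 250 bases before to 50 bases after a start, because they are the control sequence this family is known for. The motif was 3 units, GAANNTTCNNGAA or TTCNNGAANNTTC, which are each other's reverse complement, so that both strands were read. Windows were given for 65 of the 80 members, and Hsp90aa1, Hsp90ab1, Hspa8 and Hspa9 were among those without one. The motif was found in 4 of these 65 genes (6.15%), Hspd1, Hspe1, Dnajb6 and Hsph1, against 179 of all 27025 genes with a window (0.662%). A run of 4 units, GAANNTTCNNGAANNTTC or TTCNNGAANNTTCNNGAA, stood in 8 genes in all, and Hspd1 and Hspe1 were 2 of them. These are head-to-head neighbours, and the 215 bases between their RefSeq start sites are shown because a single element, in capitals, lies in both windows. The stretch is chr1:55087933-55088147, plus strand, with Hspd1 to its left on the minus strand and Hspe1 to its right on the plus strand. The element begins at -89 from the Hspe1 start and, on the other strand, at -144 from the Hspd1 start.
Hspd1-Hspe1: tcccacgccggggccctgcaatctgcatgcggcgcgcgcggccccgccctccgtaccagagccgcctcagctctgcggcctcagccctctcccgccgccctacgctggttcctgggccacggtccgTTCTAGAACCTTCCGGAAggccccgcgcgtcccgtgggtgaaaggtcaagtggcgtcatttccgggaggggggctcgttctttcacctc

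The elements of the other members are shown for comparison, with the units in capitals and the spacer bases in lower case. That of Dnajb6 lies at chr5:29735852-29735864 on the plus strand and that of Hsph1 at chr5:149636288-149636300 on the minus strand, just after the annotated start. A match is a description of these letters and not a bound site.
Hspe1: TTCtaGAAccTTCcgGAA
Dnajb6: GAAtcTTCcgGAA
Hsph1: TTCtgGAAagTTC

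Both columns hold TPM, levels per transcript length brought to 1 common total. The 20 most abundant rows took 81.3% of that total in FuOXP NP and 47.2% in Empty NP, and most other genes stood lower in FuOXP NP. Among the 9488 genes whose mean reached 1 TPM, the median gene had a log2 difference of -1.44 on the log2(TPM + 1) scale, which is 2.71-fold lower. Each member is therefore also given relative to this median gene. Leaving those 20 rows out raises every ratio 2.82-fold, so that a member less than 2.82-fold lower as deposited turns to higher. Whole reads could be worked back from TPM and exon length, and they were few, summing to 938208 in FuOXP NP and 452556 in Empty NP over genes with a symbol. The ranges in parentheses after a fold are exact 95% Clopper-Pearson intervals from these reads and cover counting error only. They are set against the typical gene, the median of 1430 genes with at least 50 reads in both libraries together, which was 3.18-fold lower. Of 10 epithelial markers, 6 were listed at 0 in both libraries, Epcam, Cdh1, Krt8 and Krt19 among them, and the list had 1 read in FuOXP NP and 6 in Empty NP, so the defining markers of an epithelial tumour were at or near 0.

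Of the 80 chaperone genes, 12 were listed at 0 in both libraries (15%, against 52.7% of all genes) and 62 passed a mean of 1 TPM. As deposited, 50 of the 62 were at least 2-fold lower in FuOXP NP (80.6%, against 69.8% of all genes), and 1 was at least 2-fold higher (against 2.34%). That gene, Dnajc17, had 2 reads in FuOXP NP and none in Empty NP. In all 3 members, Dnajc15, Dnajb9 and Dnajc17, were higher in FuOXP NP (against 7.37% of all genes), 7 were listed at 0 in FuOXP NP (against 13%) and 1 at 0 in Empty NP (against 1.92%). Relative to the median gene, 5 members lay at least 2-fold above it (8.06%, against 12.6% of all genes) and 6 at least 2-fold below it (9.68%, against 12.2%), shares no larger than those of all genes. The members' median was -1.52, next to -1.44 for all genes. Of the 62, 8 were listed at 0 in 1 library, and others, such as Dnajc5, Dnajc13 and Dnajb4, lay under 1 TPM in FuOXP NP and passed through Empty NP, so these counts describe the members that passed and not the family. In all, the members held 1948 reads in FuOXP NP and 2959 in Empty NP.

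By class, the median log2 difference was -1.07 for HSP70, -1.67 for HSP90, -1.83 for J proteins, -1.11 for TRiC and -1.09 for HSP60. For small HSPs it was -3.34, the value of Hspb3 on 2 reads in Empty NP, and -1.42 with the genes above 0 in both libraries. In TRiC 8 of 8 measured members lay above the median gene and in HSP70 6 of 9 (against 50% of all genes), while the 2 HSP60 genes lay on either side of it. Without the 20 most abundant rows, and with the filter applied again, 66 members were counted. Over these the medians of TRiC, HSP70 and HSP60 turned to higher in FuOXP NP, at 0.30, 0.15 and 0.37, while the median gene then stood at -0.30.

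**Figure D1:**
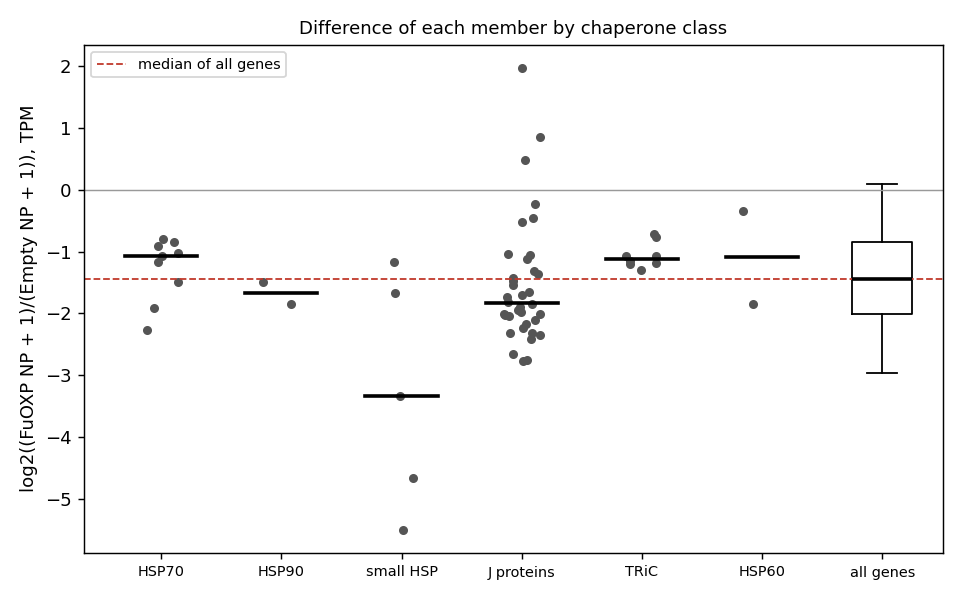
Log2 difference of each of the 62 measured chaperone genes (points) by class, FuOXP NP over Empty NP on the log2(TPM + 1) scale, with class medians as bars; the box at the right is the interquartile range of all genes with whiskers at their 5th and 95th percentiles. The 8 TRiC genes lie in a narrow band above the dashed median of all genes (-1.44), and J proteins spread from -2.77 to 1.97. The ends of that spread are Dnajc5, with 1 read in FuOXP NP and 15 in Empty NP, and Dnajc17, with 2 reads in FuOXP NP and 0 in Empty NP. All 8 TRiC genes had at least 20 reads, but only 15 of the 36 J proteins did, so the spreads are not alike in counting error.

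Hsp90ab1 was the most abundant member in both libraries. It encodes the constitutive beta form of cytosolic HSP90 and stood at 186 TPM (292 reads) in FuOXP NP and 527 TPM (444 reads) in Empty NP. Hsp90aa1, the stress-inducible alpha form, stood at 88.3 TPM (182 reads) in FuOXP NP and 320 TPM (353 reads) in Empty NP. The beta form was 2.84-fold lower (2.44 to 3.30) and the alpha form 3.62-fold lower (3.02 to 4.35), so both intervals hold the 3.18-fold of the typical gene. Beta over alpha was 2.10 in FuOXP NP and 1.65 in Empty NP, a ratio that the scaling of a library leaves as it is. Hsp90aa1 (chr12:110690605-110702728, minus strand) shares 42.8% of the 75-base stretches of its transcripts, the read length, with other annotated genes, most of all with Gm12346, whereas Hsp90ab1 (chr17:45567775-45573271, minus strand) shares 0.537%.

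In the HSP70 class, 9 of 13 genes were measured and 6 of the 9 lay above the median gene. Hspa8, the constitutive cytosolic HSP70 (chr9:40800984-40810087, plus strand), stood at 48.2 TPM (about 109 reads) in FuOXP NP and 102 TPM (about 123 reads) in Empty NP. It was 2.12-fold lower (1.61 to 2.75), an interval wholly on the less lowered side of the typical gene, and it was higher in FuOXP NP, by 0.41, once the 20 abundant rows were left out. Its exons also hold the small RNA genes Snord14c, Snord14d and Snord14e, and 33.0% of its stretches recur in other genes, so its reads may be shared.

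The HSP110 genes act as exchange factors that free the nucleotide of HSP70. Hspa4 had 9.32 TPM in FuOXP NP and 19.97 TPM in Empty NP, and Hsph1, whose promoter element is printed above, had 4.20 TPM in FuOXP NP and 8.33 TPM in Empty NP. Hspa4l had 3.72 TPM in FuOXP NP and 9.66 TPM in Empty NP. The 3 lay 0.42, 0.60 and 0.26 above the median gene, and all turned to higher without the 20 abundant rows. Their intervals, on 27, 16 and 23 reads in FuOXP NP, all held 3.18-fold. Hspa9, the mitochondrial HSP70, was at 31.1 TPM in FuOXP NP and 89.7 TPM in Empty NP, 2.89-fold lower (2.13 to 3.98), which is near the median gene.

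The stress-inducible pair Hspa1a (chr17:34969190-34972156) and Hspa1b (chr17:34956436-34959238), both on the minus strand, was listed at 0 in both libraries. At this depth 3 reads would be 1.93 TPM in FuOXP NP and 3.60 TPM in Empty NP for Hspa1a. For Hspa1b they would be 2.04 TPM in FuOXP NP and 3.81 TPM in Empty NP. These single-exon genes are near copies: 61.7% of the stretches of Hspa1a and 55.8% of those of Hspa1b also occur in another gene, most of them in each other. The sources used here do not give how reads that match both were counted, and a listed 0 is not read as absence. Hspa2 and Hspa12a were also listed at 0 in both libraries. Hspa12b, an atypical HSP70 of endothelium, had 3.11 TPM (6 reads) in FuOXP NP and 14.5 TPM (15 reads) in Empty NP. Hspa13 and Hspa14 had at most 5 reads in either library, at 0.971 and 1.41 TPM in FuOXP NP and 2.42 and 3.51 TPM in Empty NP.

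**Figure D2:**
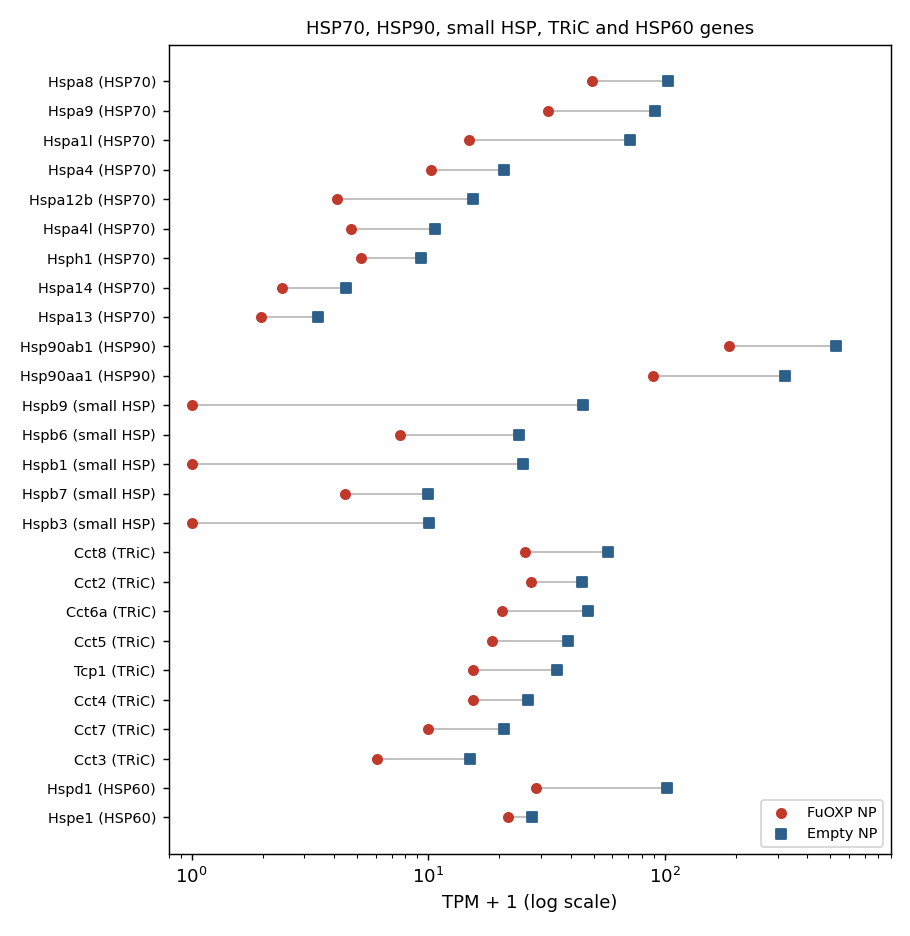
Level of each measured HSP70, HSP90, small HSP, TRiC and HSP60 gene as TPM + 1 on a log axis, with circles for FuOXP NP and squares for Empty NP, 1 library each. All 26 genes stand lower in FuOXP NP as deposited, with the shortest line at Hspe1 (20.7 TPM in FuOXP NP and 26.6 TPM in Empty NP) and with Hspb1, Hspb3 and Hspb9 listed at 0.

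The 8 subunits of the TRiC ring stood close together. All 8 were lower in FuOXP NP as deposited, by 1.66-fold to 2.75-fold, all 8 lay above the median gene (against 50% of all genes), and all 8 turned to higher without the 20 abundant rows (against 37.8% of all genes). The group held 257 reads in FuOXP NP and 298 in Empty NP, which is 2.16-fold lower (1.83 to 2.57), a pooled interval below the 3.18-fold of the typical gene. Ring subunits act in equal numbers, and their transcript levels differed within a library: the highest exceeded the lowest 5.16-fold in FuOXP NP and 4.04-fold in Empty NP.

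Cct2 was highest of the ring genes in FuOXP NP, at 26.3 TPM against 43.6 TPM in Empty NP, and Cct8 was highest in Empty NP, at 24.7 TPM in FuOXP NP and 56.5 TPM in Empty NP. Cct3 was lowest in both, with 5.09 TPM in FuOXP NP and 14.0 TPM in Empty NP. Cct4 had 14.5 TPM in FuOXP NP and 25.4 TPM in Empty NP. Cct2 and Cct4 were the least lowered, at 1.66-fold (0.986 to 2.76) and 1.75-fold (1.03 to 2.97), and were the ring genes whose own intervals lay wholly clear of 3.18-fold. Tcp1, the alpha subunit, had 14.4 TPM in FuOXP NP and 34.0 TPM in Empty NP, and its exons overlap those of Mrpl18 and of Acat3, which stood at 779 TPM in FuOXP NP and 1753 TPM in Empty NP. The remaining ring genes Cct5, Cct6a and Cct7 ran from 9.01 to 19.5 TPM in FuOXP NP and from 19.97 to 46.2 TPM in Empty NP. The testis forms were near 0: Cct6b was listed at 0 in both libraries, and Cct8l1 had 1 read in Empty NP and none in FuOXP NP.

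The head-to-head pair of HSP60 and HSP10 differed in its proportion between the libraries, on few reads. Hspd1 stood at 27.4 TPM (38 reads) in FuOXP NP and 101 TPM (75 reads) in Empty NP, 3.68-fold lower (2.46 to 5.60). Hspe1 stood at 20.7 TPM (16 reads) in FuOXP NP and 26.6 TPM (11 reads) in Empty NP, 1.28-fold lower (0.539 to 2.95). Hspd1 over Hspe1 was 1.33 in FuOXP NP and 3.80 in Empty NP. The intervals of the 2 genes overlap each other. The interval of Hspe1 lay clear of the 3.18-fold of the typical gene and that of Hspd1 held it, and the difference between the genes was not tested. The exons of the 2 genes overlap each other in the annotation, and 31.0% of the stretches of Hspd1, most of them in Hspd1-ps3, and 14.6% of those of Hspe1 recur in other genes.

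Of the 45 J protein genes 36 were measured, 12 above and 24 below the median gene (against 50% above), and 3 of the 36 were higher in FuOXP NP (against 7.37% of all genes). Of the 36, 4 were listed at 0 in FuOXP NP and 1 at 0 in Empty NP. These passed the filter through 1 library alone, so their side was fixed by it. Others, such as Dnajc5 and Dnajc13, lay under 1 TPM in FuOXP NP. The split therefore describes the genes that passed and not the family. By subfamily the median was -1.96 for the 4 Dnaja genes, which resemble bacterial DnaJ throughout, -1.60 for 10 Dnajb genes and -1.90 for 22 Dnajc genes. Dnaja1, the main cytosolic partner of Hspa8, stood at 18.1 TPM (82 reads) in FuOXP NP and 50.8 TPM (123 reads) in Empty NP, and lay 0.0039 above the median gene. Of other well-known members, chosen after their values were seen, Dnaja2, a close relative of Dnaja1, had 5.77 TPM in FuOXP NP and 26.3 TPM in Empty NP. Dnajb1, the heat-inducible HSP40, had 1.19 TPM (2 reads) in FuOXP NP and 7.78 TPM (7 reads) in Empty NP. Dnaja4 had 1.59 TPM (3 reads) in FuOXP NP and 11.9 TPM (12 reads) in Empty NP, and its exons overlap Wdr61.

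**Figure D3:**
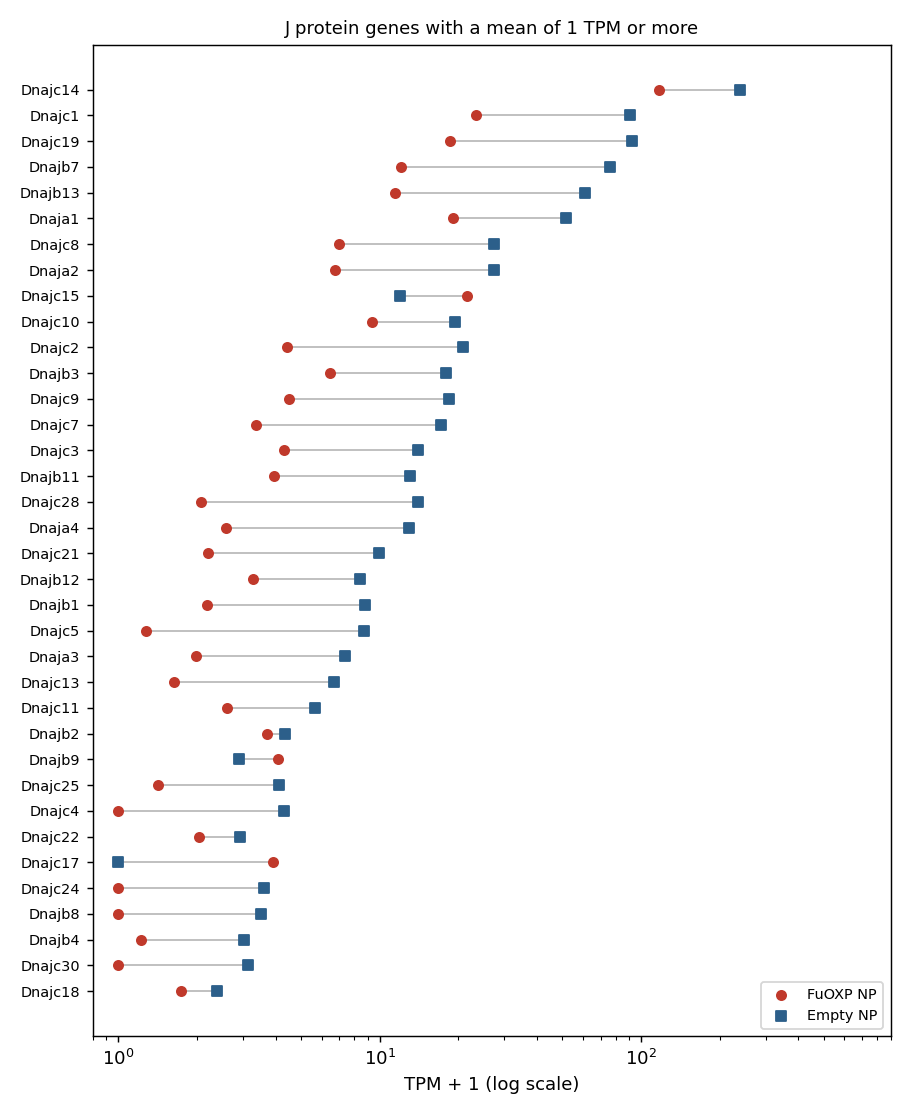
Level of the 36 measured J protein genes as TPM + 1 on a log axis, ordered by mean level, with circles for FuOXP NP and squares for Empty NP, 1 library each. Dnajc15, Dnajb9 and Dnajc17 are the 3 genes whose FuOXP NP value lies to the right, and of these Dnajc15 alone has more than 10 reads.

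Dnajc15 had the most reads of the 3 members that were higher in FuOXP NP. It encodes a J protein of the mitochondrial inner membrane related to Dnajc19, lies at chr14:77820681-77875125 on the minus strand, and has exons that overlap no other gene. It stood at 20.6 TPM (about 70 reads) in FuOXP NP and 11.0 TPM (about 20 reads) in Empty NP. That is 1.87-fold higher in FuOXP NP, with an interval of Empty NP over FuOXP NP of 0.307 to 0.887, and 2.29 above the median gene. Its relative Dnajc19, a partner of the mitochondrial import motor, went the other way, with 17.5 TPM (37 reads) in FuOXP NP and 91.1 TPM (103 reads) in Empty NP, 5.20-fold lower (3.54 to 7.79). Exons of Dnajc19 overlap those of Fxr1. The intervals of Dnajc15 and Dnajc19 did not overlap. These genes are among the highest and lowest J proteins named from the same values, so this adds no separate support. The 8 mitochondrial members together split into 3 above and 5 below the median gene.

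Dnajc14, an endoplasmic reticulum membrane J protein, was the most abundant J gene, at 116 TPM in FuOXP NP and 238 TPM in Empty NP, 2.06-fold lower (1.79 to 2.36). Its exons overlap those of Ormdl2, Sarnp and Tmem198b, and Ormdl2 stood at 376 TPM in FuOXP NP and 801 TPM in Empty NP, a similar ratio, and the reads of these genes cannot be told apart in the overlap. Dnajc1, another J protein of that membrane, was at 22.4 TPM (137 reads) in FuOXP NP and 89.6 TPM (293 reads) in Empty NP, 3.99-fold lower (3.25 to 4.93), with exons that overlap Mllt10. Dnajc10, which reduces disulphides in the endoplasmic reticulum, had 8.39 TPM in FuOXP NP and 18.5 TPM in Empty NP, 0.38 above the median gene. Dnajc3, a stress-induced inhibitor of the kinase PERK, had 3.31 TPM in FuOXP NP and 13.0 TPM in Empty NP, 0.26 below it. Dnajb9 was at 3.07 TPM (about 4 reads) in FuOXP NP and 1.91 TPM (about 1 read) in Empty NP, too few to show a difference.

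At the low end, Dnajc7, a partner of both HSP70 and HSP90, had 2.35 TPM (6 reads) in FuOXP NP and 16.1 TPM (22 reads) in Empty NP, 6.84-fold lower (2.69 to 20.6). Dnajc28 had 1.07 TPM (2 reads) in FuOXP NP and 13.0 TPM (13 reads) in Empty NP, 12.1-fold lower (2.75 to 111). Both intervals still hold 3.18-fold. Dnajc5, the cysteine string protein of secretory vesicles, also chosen after its values were seen, had 0.274 TPM (1 read) in FuOXP NP and 7.68 TPM (15 reads) in Empty NP, 28.0-fold lower (4.31 to 1179). The J genes Dnajb5, Dnajc5b, Dnajc5g, Dnajc6 and Dnajc12 were listed at 0 in both libraries, and Dnajb6, Dnajb14, Dnajc16 and Dnajc27 lay under 1 TPM on average.

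Small HSP genes had very few reads, 13 in FuOXP NP and 41 in Empty NP, and 3 of the 5 measured genes passed the filter through Empty NP alone. Hspb1, the widely expressed small HSP that stress induces (chr5:135887919-135889563, plus strand), was listed at 0 in FuOXP NP and stood at 24.2 TPM in Empty NP on 7 reads, with 46.4% of its stretches in other genes. For Hspb1, 3 reads in FuOXP NP would be 5.55 TPM. Hspb9 was listed at 0 in FuOXP NP and stood at 44.1 TPM in Empty NP on 9 reads, and 3 reads in FuOXP NP would be 7.88 TPM. Hspb3 was listed at 0 in FuOXP NP and had 9.12 TPM in Empty NP on 2 reads. Hspb6 was at 6.64 TPM in FuOXP NP and 23.2 TPM in Empty NP, and Hspb7 at 3.44 TPM in FuOXP NP and 9.003 TPM in Empty NP. They had 8 and 5 reads in FuOXP NP, and exons of Hspb6 overlap those of Lin37 and Proser3. Hspb2 and Hspb8 were listed at 0 in both libraries, and Hspb11 had 1 read in Empty NP.

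Several small HSPs are known from skeletal muscle (Hspb2, Hspb3, Hspb6, Hspb7 and Hspb8), and muscle markers moved with the groups. Of 28 such markers 17 were measured, and 14 of the 17 were listed at 0 in FuOXP NP, Acta1 and Tnnt3 among them. These 14 passed the filter through Empty NP alone, so their direction was fixed by it. The summed level of all 28 markers was 2.11 TPM in FuOXP NP and 160 TPM in Empty NP. Myh4, a fast myosin heavy chain, had 0.317 TPM in FuOXP NP and 27.2 TPM in Empty NP. The part of muscle RNA in the small HSP values was not tested. The pooled reads of the marker list were 17.1-fold lower (12.6 to 23.7), those of the 5 muscle small HSPs 3.45-fold lower (1.69 to 7.37). Of the 47 pooled marker reads in FuOXP NP, 35 were of Ttn and 10 of Neb, so these genes hold most of the FuOXP NP reads. On their own Ttn was 12.5-fold lower and Neb 14.7-fold lower, each less than the pooled fold. The marker list includes Cryab, whose exons overlap those of Hspb2.

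Members known mainly from the testis were picked as a group after their values were seen, so no count of their direction is given. Of 11 such genes 4 were listed at 0 in both libraries and 6 were measured, Hspb9 and Dnajb8 through Empty NP alone. Hspa1l, a testis HSP70, stood at 13.9 TPM (18 reads) in FuOXP NP and 70.6 TPM (49 reads) in Empty NP, yet 71.1% of its stretches are shared with the overlapping Gm10501. Dnajb7 stood at 11.1 TPM (8 reads) in FuOXP NP and 75.2 TPM (29 reads) in Empty NP, and it is a single-exon gene inside Xpnpep3. Dnajb13, an axonemal J protein, stood at 10.5 TPM (15 reads) in FuOXP NP and 60.0 TPM (46 reads) in Empty NP, and its exons overlap Ucp2, which stood at 1.09 TPM in FuOXP NP and 1.53 TPM in Empty NP. Dnajb3, a single-exon gene inside the Ugt1a cluster, had 5.45 TPM (3 reads) in FuOXP NP and 16.9 TPM (5 reads) in Empty NP. The strand setting of the counting is not given, so reads of the host or overlapping genes cannot be told apart from theirs.

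**Figure D4:**
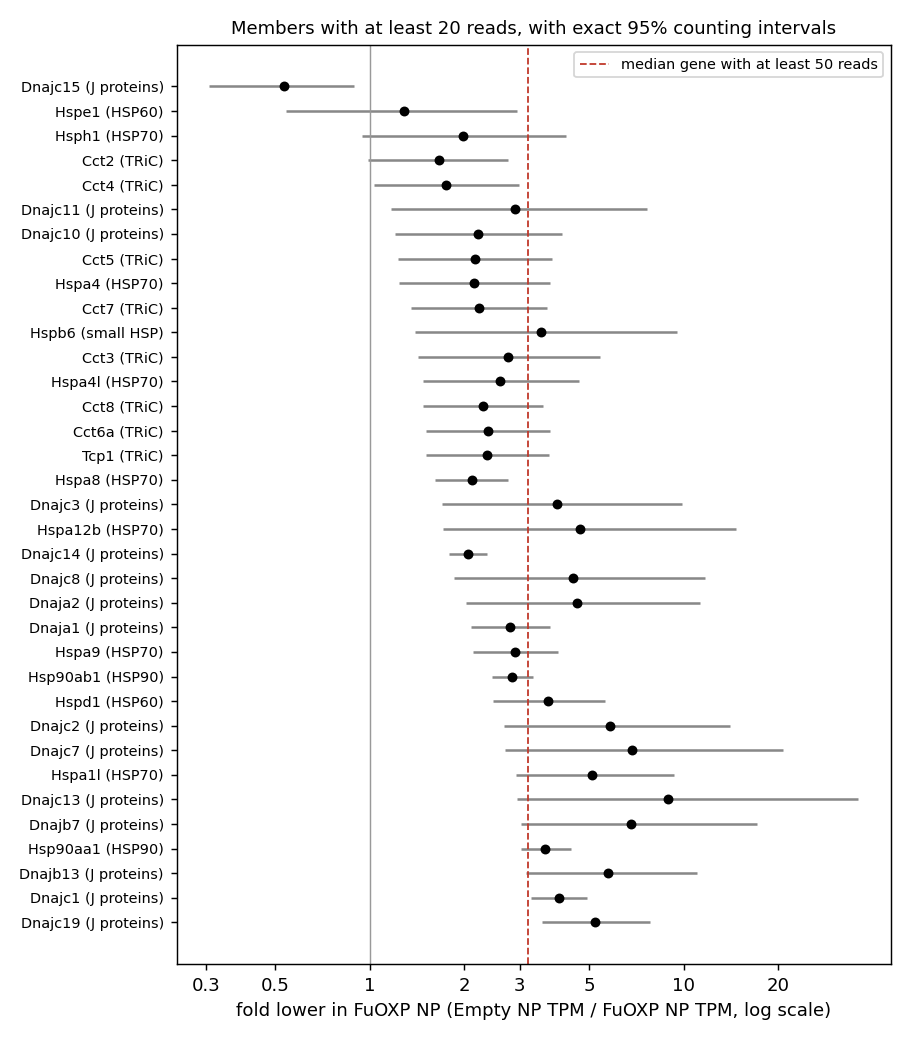
Fold by which each of the 35 members with at least 20 reads was lower in FuOXP NP (points, Empty NP over FuOXP NP in TPM, log axis), with exact 95% Clopper-Pearson intervals on recovered reads as lines; the dashed line is the median gene with at least 50 reads, 3.18-fold lower. Dnajc15, Hspe1, Cct2, Cct4, Hspa8 and Dnajc14 lie wholly to its left, and Dnajc1 and Dnajc19 wholly to its right.

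Among the 35 members with at least 20 reads in both libraries together, 6 had an interval wholly above the typical ratio (17.1%, against 14.3% of 3304 genes), namely Dnajc15, Hspe1, Cct2, Cct4, Hspa8 and Dnajc14. Another 2, Dnajc1 and Dnajc19, had one wholly below it (5.71%, against 17.1%). The share above is near that of all genes and is not a result about chaperones. Of the 62 measured members, 27 had fewer than 20 reads.

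The partners of these chaperones, in lists chosen with earlier results of these data known, were also mostly lower as deposited. Of 28 co-chaperones of HSP70 and HSP90, 22 were at least 2-fold lower (against 69.8% of all genes) and none was at least 2-fold higher (against 2.34%), with 17 above and 11 below the median gene and a median of -1.40, near the -1.44 of all genes. Ahsa2, a relative of the HSP90 activator Ahsa1, was listed highest, at 166 TPM in FuOXP NP and 713 TPM in Empty NP, and its exons overlap Usp34. Sugt1, an HSP90 co-chaperone of kinetochore assembly, was nearly equal as deposited, at 11.7 TPM (about 48 reads) in FuOXP NP and 12.8 TPM (about 28 reads) in Empty NP, 1.09-fold lower (0.658 to 1.77). Chordc1, another HSP90 partner, was among the lowest relative to the median gene, at 3.46 TPM (about 14 reads) in FuOXP NP and 24.2 TPM (about 51 reads) in Empty NP, with an interval of 3.71-fold to 13.3-fold lower. Stub1, the ubiquitin ligase CHIP that sends HSP70 clients to the proteasome, had 36.5 TPM in FuOXP NP and 63.9 TPM in Empty NP, and Bag1, a nucleotide exchange factor, had 17.0 TPM in FuOXP NP and 68.6 TPM in Empty NP.

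The heat shock factors were low. Hsf1, the master factor of the heat shock response, had 1.89 TPM (about 7 reads) in FuOXP NP and 5.29 TPM (about 11 reads) in Empty NP, and Hsf2 had 2.92 TPM in FuOXP NP and 5.45 TPM in Empty NP. Hsbp1, which binds and restrains HSF1, had 1.03 TPM (1 read) in FuOXP NP and 13.4 TPM (7 reads) in Empty NP. Prefoldin hands actin and tubulin to the ring. Of the 10 prefoldin and TRiC cofactors, 6 were at least 2-fold lower (against 69.8% of all genes) and 7 lay above the median gene (against 50%), with a median of -1.11. Pfdn5, a prefoldin subunit, was nearly equal, at 27.4 TPM in FuOXP NP and 25.5 TPM in Empty NP, and its exons overlap Myg1. Of 12 measured mitochondrial partners and proteases, 9 were at least 2-fold lower (against 69.8% of all genes) and 6 lay above the median gene (against 50%). Grpel1, the exchange factor of Hspa9, had 60.6 TPM in FuOXP NP and 176 TPM in Empty NP, 2.90-fold lower, beside 2.89-fold for Hspa9 itself.

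The chaperones of the endoplasmic reticulum are the most similar family outside the chosen members. All 16 were measured, 7 were at least 2-fold lower (against 69.8% of all genes) and 14 stood above the median gene (against 50%). Their median was -0.93, against -1.52 for the 62 measured members chosen by symbol. Their pooled reads, 714 in FuOXP NP and 828 in Empty NP, came to 2.17-fold lower (1.96 to 2.40), and those of the chosen members to 2.84-fold lower (2.68 to 3.00). These pooled intervals do not overlap, which covers counting error and not variation between tumours. The separation does not hold for every class of the chosen members. The pooled intervals of TRiC (1.83 to 2.58), HSP70 (2.23 to 3.06) and HSP60 (2.09 to 4.26) overlap that of this family. Those of HSP90, J proteins and small HSPs do not. The chosen members also include 10 of the endoplasmic reticulum, whose pooled reads came to 2.56-fold lower (2.30 to 2.85), which overlaps both. Hspa5, the HSP70 of that compartment, was at 55.0 TPM in FuOXP NP and 97.7 TPM in Empty NP, 1.77-fold lower (1.36 to 2.31), and the interval of its cytosolic relative Hspa8 (1.61 to 2.75) overlaps it. The 2 members below the median gene were Sdf2l1, listed at 0 in FuOXP NP and at 16.1 TPM in Empty NP on 5 reads, and Sil1, listed at 0 in FuOXP NP and at 8.40 TPM in Empty NP on about 8 reads.

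Markers of other cells stood beside these values as follows, and their part in them was not tested. Leukocyte markers had 10 measured members above and 9 below the median gene, with summed levels of 320 TPM in FuOXP NP and 824 TPM in Empty NP, and Cd3e was listed at 0 in both. The list did not move one way: Cd74 stood at 2.71 TPM in FuOXP NP and 68.2 TPM in Empty NP, S100a9 at 14.6 TPM in FuOXP NP and at 0 in Empty NP, and Cd247, whose exons overlap Pou2f1, at 59.1 TPM in FuOXP NP and 333 TPM in Empty NP. Fibroblast and endothelial markers had 5 above and 6 below it, with 71.1 TPM in FuOXP NP and 166 TPM in Empty NP, and Vwf was listed at 0 in both. Erythroid markers summed to 75.0 TPM in FuOXP NP and 38.5 TPM in Empty NP, and did not move one way. Of 4 measured members, 3 globin genes (Hbb-bs, Hba-a1 and Hba-a2) were listed at 0 in Empty NP. They passed the filter through FuOXP NP alone, so their direction was fixed by it. Hbb-bs had 57.1 TPM (23 reads) in FuOXP NP, and Hba-a1 and Hba-a2 had 3 reads and 1 read. Alas2 went the other way, at 7.94 TPM in FuOXP NP and 38.5 TPM in Empty NP. Hbb-bt was listed at 0 in both libraries.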

How the data were processed

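Per the labels' protocols, libraries of CT26 tumour RNA were read in pairs of 75 bases. The authors deposited TPM values, 1 column for each of the 2 libraries, FuOXP NP and Empty NP. Per the submitters' processing notes STAR 2.6.1a, Cufflinks 2.2.1, Cuffdiff and build GRCm38 were used. The sources used here give neither their roles nor the annotation or strand setting.

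Rows without a symbol (22240 of 53927), with a date for a symbol (26) or repeating the pair of values of the row before (54) were left out, and of a repeated symbol the highest row was kept. Differences were log2((FuOXP NP + 1)/(Empty NP + 1)), which understates low genes, for a mean of 1 TPM or more, with 2-fold as the call. Exon lengths, overlaps and positions came from GENCODE vM21 (GRCm38), and promoters from RefSeq (GRCm38.p6). Reads were TPM times exon length in kb over a step found from the low values, 1.91 in FuOXP NP and 3.56 in Empty NP. Of genes under 10 reads, 80.8% in FuOXP NP and 80.8% in Empty NP came within 0.01 of a whole number. Of the 62 measured members 49 did so in both libraries, and the others are given as about. Each may stand for a single read or a pair, and their sum is far below the labelled depth, for a reason not stated. The steps were tested on simulated data.

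Members, lists and tests were chosen with earlier results of these data known. Genes named were the measured members of all classes but J proteins, the 5 most abundant, 6 highest and 6 lowest J proteins (the extremes at a mean of 5 TPM or more), and some of up to 4 most abundant and 2 most differing genes per list. Dnaja2, Dnajb1, Dnajb9, Dnajc5 and Dnajc17 were added after their values were seen. Alternatives were pseudocounts of 0.1 and 5 TPM, no filter and a mean of 5 TPM, summed repeated symbols, rescaling without the 20 most abundant rows, sums without the top member, and members above 0 in both libraries, without exon overlap or with at least 20 reads. Counts with at least 20 reads, members under 5% shared stretches and pooled reads were added after seeing the data. Python 3.11.15, numpy 2.4.6, pandas 2.3.3, scipy 1.17.1 and matplotlib 3.10.9 were used.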

Additional observations from a re-analysis of the deposited data

Results flagged for a closer look

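Rows that carry no gene symbol enter none of the comparisons. They took 71.3% of the TPM total in the FuOXP NP library, against a smaller 62.9% in the Empty NP control library. Chaperone pseudogenes or transcripts among them could not be named.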

How the results depend on the processing

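Of 122 values recomputed, 74 stayed within the counting error of the pooled reads of their class or of all members (or within 1.5 times, for counts). Another 42 moved further and 6 changed sign, all 6 on rescaling without the 20 most abundant rows. For medians that yardstick is the counting error of a sum and not of the median itself. Rescaling came before the filter, so that 66 members were then counted. Rescaled, medians were -0.33 for all members, 0.15 for HSP70, -0.18 for HSP90, -0.73 for J proteins, 0.30 for TRiC and 0.37 for HSP60. Log2 ratios of summed TPM were then -0.084 for all members (-1.58 as deposited), 0.027 for HSP70 (-1.47), -0.13 for HSP90 (-1.63), -1.97 for small HSPs (-3.47), -0.16 for J proteins (-1.66), 0.40 for TRiC (-1.09) and 0.089 for HSP60 (-1.41), and 22 members were at least 2-fold lower and 5 higher. With a pseudocount of 0.1 TPM, medians were -1.82 for all members, -6.53 for small HSPs and -2.33 for J proteins, with 11 members at least 2-fold below and 8 above the median gene. With 5 TPM they were -1.01 for all members, -0.80 for HSP70, -1.50 for small HSPs and -1.03 for J proteins, with 33 members at least 2-fold lower, 0 higher, and 2 above the median gene. With no filter, medians were -1.25 for all members, -1.55 for small HSPs and -1.54 for J proteins, and 52 members lay 2-fold below and 1 above a median gene at 0. At a mean of 5 TPM the J proteins' median was -2.01, with 0 members at least 2-fold higher and 2 above the median gene. With at least 20 reads, medians were -1.44 for all members, -1.67 for small HSPs (Hspb6 only) and -1.98 for J proteins, with 30 members at least 2-fold lower, 0 higher, 1 below and 2 above the median gene. Members above 0 in both libraries gave -1.42 for small HSPs, and those under 5% shared stretches -1.50 for HSP90 (Hsp90ab1 alone). Without the most abundant member the summed ratio was -1.86 for HSP90, -1.97 for J proteins and -0.36 for HSP60, and on pooled reads it was -1.53 for J proteins. Fewer or other members account for the values under the filters and lists; the cause was not tested otherwise. No paired analysis was possible because each group has 1 library, and for the same reason no replicate could be left out.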
